A study of Mus musculus with 12 samples.

Results

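Indole-3-propionic acid (IPA) was compared with vehicle in dorsal root ganglia whose nerve had not been injured. The comparison takes 6 of the 12 libraries of the series, chosen by their labels alone: 3 from mice given IPA and 3 from mice given phosphate-buffered saline (PBS). All were C57BL/6 mice of 6 to 8 weeks, treated once a day by gavage for 10 days, with IPA at 20 mg/kg in PBS or with PBS alone. Each library is poly(A) RNA of the L4 to L6 ganglia of 2 pooled mice. Sex and batch are not stated in the labels. The other 6 libraries repeat the 2 treatments with the sciatic nerve crushed 3 days before collection, and they share no library with the intact groups. Of 44345 listed genes, 15076 had a value of at least 0.5 in 3 or more of the 6 libraries and were tested, and 17281 were at 0 in all 6.

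Dorsal root ganglia hold the cell bodies of the sensory neurons that supply skin, muscle and viscera, wrapped by satellite glia and mixed with Schwann cells, vessels, fibroblasts and macrophages. IPA is made from tryptophan by gut bacteria and reaches the blood. It is known as a ligand of the pregnane X receptor (Nr1i2) and of the aryl hydrocarbon receptor (Ahr), 2 ligand-activated transcription factors. Ligand-bound Ahr pairs with Arnt at DNA holding the core GCGTG and switches on Cyp1a1, Cyp1b1, Ahrr and Tiparp. The products of Ahrr and Tiparp then restrain the receptor.

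The promoters of the 3 classical Ahr targets that passed the filter are printed here because the core can be read in each of them. They are the 250 bases before the RefSeq start (GRCm38.p6), in the direction of the gene, for Ahrr at chr13:74292332-74292581 (minus strand), Cyp1b1 at chr17:79715062-79715311 (minus strand) and Tiparp at chr3:65528197-65528446 (plus strand). Capitals mark GCGTG on the strand shown, or CACGC where the core lies on the other strand.
Ahrr: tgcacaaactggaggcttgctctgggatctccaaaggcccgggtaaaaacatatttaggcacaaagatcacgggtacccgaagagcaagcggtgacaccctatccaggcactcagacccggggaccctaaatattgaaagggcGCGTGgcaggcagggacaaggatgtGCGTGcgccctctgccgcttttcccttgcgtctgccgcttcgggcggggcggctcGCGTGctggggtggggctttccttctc
Cyp1b1: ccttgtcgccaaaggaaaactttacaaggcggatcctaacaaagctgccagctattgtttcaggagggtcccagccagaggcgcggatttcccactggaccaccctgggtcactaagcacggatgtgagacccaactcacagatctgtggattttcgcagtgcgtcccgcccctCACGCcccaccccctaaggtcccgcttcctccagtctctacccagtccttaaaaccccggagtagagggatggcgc
Tiparp: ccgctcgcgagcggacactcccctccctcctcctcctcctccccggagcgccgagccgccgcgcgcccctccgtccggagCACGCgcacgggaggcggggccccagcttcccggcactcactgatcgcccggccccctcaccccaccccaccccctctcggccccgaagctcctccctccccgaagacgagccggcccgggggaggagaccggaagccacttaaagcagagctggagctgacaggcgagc
The Ahrr window held 3 cores, and the Cyp1b1 and Tiparp windows 1 each. The core was present in 28.16% of 32851 promoter windows of this length, so a match describes the window and does not mark a bound site.

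None of these 3 targets was called different between the groups. Cyp1b1, a cytochrome P450, measured 35.3, 33.1 and 35.8 in the vehicle libraries and 31.2, 34.2 and 30.05 in the IPA libraries, in the deposited unit, which behaves as CPM, a scaled read count. Its log2 difference, IPA minus vehicle, was -0.13, with a 95% interval from -0.25 to 0.00, and 1 IPA library lay inside the vehicle range. Ahrr, the receptor's repressor, measured 3.04, 2.73 and 2.40 against 2.43, 2.63 and 2.29, with intermingled groups and an interval from -0.36 to 0.11. Tiparp, which modifies and represses the receptor, measured 25.8, 28.6 and 26.1 against 24.4, 25.8 and 25.5. The lowest vehicle and the highest IPA library differed only in the next decimal, and the interval ran from -0.21 to 0.04. Each upper bound lies below a 1.5-fold rise. Cyp1a1, the most commonly used target, was too low to test, at 0.13 to 0.33 in the 6 libraries.

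The receptors themselves were measured at low to moderate levels. Ahr was at 14.5, 14.4 and 14.2 in vehicle and at 13.2, 12.9 and 13.6 in IPA libraries. All 3 IPA values lay below all 3 vehicle values, but the log2 difference of -0.12 (95% interval -0.24 to 0.01) did not pass (limma adjusted p = 0.235). Nr1i2, the pregnane X receptor, was listed at 0.00 to 0.09, below the filter, as were its targets Cyp3a11 and Cyp2b10. Abcg2, an efflux pump regulated by both receptors, measured 78.1, 78.4 and 78.0 against 69.7, 70.6 and 72.3 (log2 -0.14 ± 0.04 SE). The groups did not overlap, and with the GC and length trend described further on removed, its difference came to -0.03. Tlr4, a receptor of bacterial lipopolysaccharide that is held down by pregnane X receptor signalling in gut, measured 3.87, 4.44 and 4.19 against 3.32, 3.40 and 3.54, again with no overlap (log2 -0.25 ± 0.09 SE, limma adjusted p = 0.148). Kyat1, an aminotransferase of the tryptophan pathway, lay the other way, at 7.77, 7.77 and 8.36 against 8.79, 9.81 and 9.12 (log2 0.20). With the same trend removed, the log2 differences of Tlr4 and Kyat1 came to -0.17 and 0.11. Of the 35 receptors, targets and tryptophan enzymes listed, 19 could be tested. Of these, 6 were higher and 13 lower with IPA. Limma called none and DESeq2 called Abcg2 alone, though Tlr4 and Kyat1 received no adjusted p from DESeq2. The median log2 difference was -0.09 beside 0.01 over all tested genes. With the GC and length trend removed these medians were -0.03 and -0.00.

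Over the whole transcriptome no gene was called. The test was limma on log2(value + 0.5), which understates the difference of low genes, and a call needed a Benjamini-Hochberg adjusted p under 0.05. The share called was 0% of 15076 genes, and the smallest adjusted p was 0.123. At an unadjusted p under 0.05, 1839 genes were higher with IPA (12.2%) and 1631 lower (10.8%), or 3470 in all. The 3 IPA values lay above all 3 vehicle values for 1960 genes (13.0%) and below them for 1925 genes (12.8%). The differences were small: the 95% interval stayed within 1.5-fold in either direction for 14491 genes, and 26 genes combined a difference over 1.5-fold with an unadjusted p under 0.05.

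The count of calls turned on 1 library and on the tool. Leaving out vehicle replicate 3 gave 3717 calls (2080 higher, 1637 lower), while leaving out any of the other 5 libraries gave 0. With array weights, a limma option that down-weights libraries that vary more, 5000 genes were called, and vehicle replicate 3 received the lowest weight, 0.281, against 0.595 to 3.61 for the others. On the whole reads recovered from the table, edgeR called 0. DESeq2 called 865 of the 8938 genes it kept after its own filter (9.68%), 399 higher and 466 lower. The remaining genes received no adjusted p from DESeq2. A count of its calls in a gene list therefore covers only the members it kept. The median size of the DESeq2 calls was 0.20 on the log2 scale, 786 of them had no overlap between groups, and 854 were also among the 3717. The bar chart of calls by setting shows these counts beside the others.

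**Figure D1:**
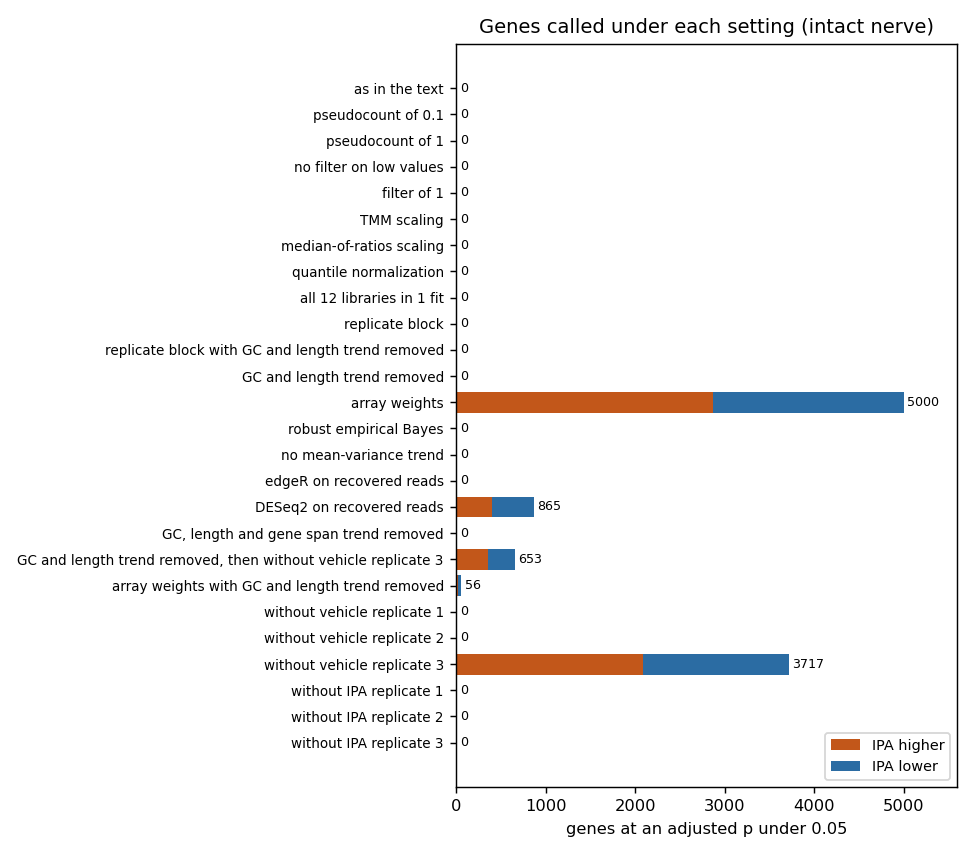
Genes at an adjusted p under 0.05 (horizontal axis) under each way of processing the 6 intact-nerve libraries, split into IPA higher and IPA lower. Most bars are at 0; the exceptions are array weights (5000, or 56 with the GC and length trend removed), the fits without vehicle replicate 3 (3717, or 653) and DESeq2 (865).

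Vehicle replicate 3 lay with the IPA libraries on the main axis of variation. The first principal component held 44.0% of the variance of the 6 libraries, with scores of -11.3, -15.1 and 3.03 for vehicle and 7.22, 12.7 and 3.43 for IPA. Vehicle replicate 3 thus scored close to IPA replicate 3, and far from its own group. Depth moved with treatment: 41694916, 42689743 and 49481144 recovered reads in vehicle and 51482387, 53754602 and 56798355 in IPA, without overlap (exact permutation p = 0.1, the smallest that 3 against 3 allows). So did base composition. The log2 deviation of a gene from its 6-library mean changed per 10 points of GC content of its transcript by -0.08, -0.12 and 0.02 in vehicle and by 0.05, 0.10 and 0.03 in IPA libraries (exact permutation p = 0.1). Vehicle replicate 3 was the vehicle library nearest the IPA group in all 3 measures.

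**Figure D2:**
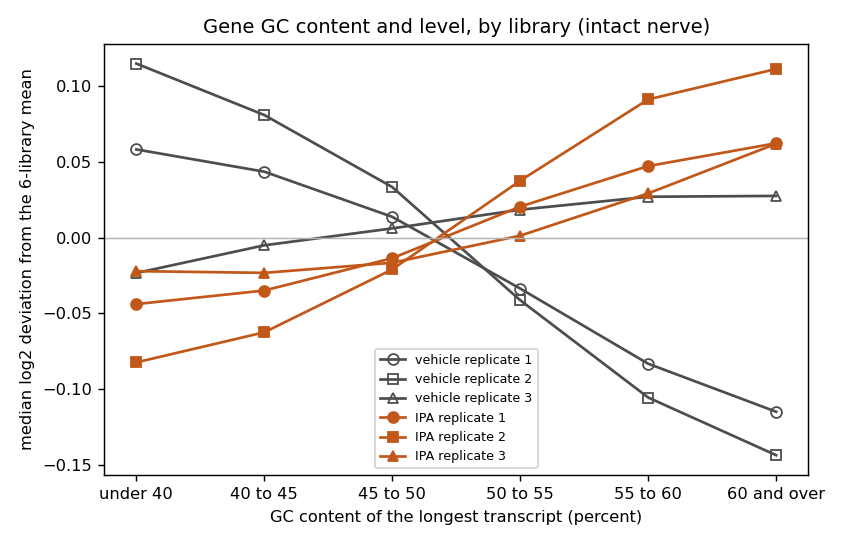
Median log2 deviation from the 6-library mean (vertical axis) for genes in bins of transcript GC content in percent (horizontal axis), 1 line per intact-nerve library. Vehicle replicates 1 and 2 slope down, the 3 IPA libraries slope up, and vehicle replicate 3 slopes slightly up with the IPA libraries.

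Across genes, the log2 difference followed GC content and gene size. Genes whose longest transcript was under 40% GC had a median of -0.10 (n = 855), and those of 60% and over a median of 0.15 (n = 667). In the low-GC bin 1.29% of genes were without overlap and higher with IPA, and 25.7% without overlap and lower; in the high-GC bin these shares were 39.1% and 0.60%. Genes spanning under 5 kb had a median of 0.09, and genes of 300 kb and over a median of -0.09. Spearman's rho with the log2 difference was 0.60 for GC content and -0.38 for gene span over 14777 genes, which share the same 6 libraries and are not independent. Removing each library's trend on GC content and transcript length left the median of every GC bin within 0.01 of 0, as the fit is built to do. It also left 2011 genes at an unadjusted p under 0.05, in place of 3470. The part of depth and base composition in any difference between the groups cannot be told apart from treatment here.

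The 12 genes with the smallest p among those higher with IPA, taken from genes that averaged 1 or more in either group and did not overlap between groups, are given as values, since none was called. Arhgef1 (chromosome 7, 24902912 to 24926594) encodes a guanine nucleotide exchange factor for the GTPase RhoA. It measured 53.6, 52.5 and 54.0 in vehicle and 65.3, 70.0 and 65.3 in IPA libraries, means of 53.4 ± 0.73 and 66.9 ± 2.703 (SD, n = 3; log2 0.32 ± 0.04 SE, limma adjusted p = 0.123). Every IPA library was well above the vehicle range. Atxn2l, an RNA-binding relative of ataxin-2 found in stress granules, measured 89.0, 93.1 and 90.2 against 106.5, 116.7 and 108.6. Dus3l, which is named for its likeness to enzymes that make dihydrouridine in RNA, measured 31.9, 32.6 and 35.0 against 40.5, 42.3 and 40.8. Cherp, a nuclear protein linked to splicing and calcium release, measured 35.0, 35.1 and 36.0 against 41.2, 42.0 and 42.5. In these genes the gap between the groups was larger than the range within either.

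Regulators of chromatin and transcription made up another portion of the 12. Tle2, a Groucho-type co-repressor, measured 10.2, 9.63 and 9.10 against 12.4, 15.3 and 14.1 (log2 0.50 ± 0.08 SE). Pcgf1, a subunit of a Polycomb complex that ubiquitinates histone H2A, measured 17.6, 17.3 and 15.6 against 21.5, 22.3 and 20.8. Sirt7, a nuclear deacylase that acts on chromatin and in the nucleolus, measured 19.9, 19.7 and 18.7 against 23.8, 24.7 and 23.2. Each of these 3 genes had its highest value in IPA replicate 2. Dtx3 and Josd2, a ubiquitin ligase and a deubiquitinase, had log2 differences of 0.25 and 0.32, and Kifc2, a motor of the kinesin family, one of 0.27. Reads of Sirt7 may be shared with Mafg, which the annotation places over it on the same strand.

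The largest differences of the 12 were in a pair of low non-coding genes. Mir5125 measured 3.08, 3.58 and 2.23 against 5.12, 6.34 and 5.39, 1.78-fold. It is a microRNA gene of 79 bases inside Srrm2 and on its strand, so its reads in poly(A) libraries cannot be told apart from those of Srrm2. Snhg20, a host gene of a small nucleolar RNA that the table lists as 2810008D09Rik, measured 3.22, 3.55 and 3.19 against 4.63, 5.39 and 5.17 (log2 0.54 ± 0.09 SE).

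Of the 12 genes lower with IPA, several belong to the surface and matrix of neurons and glia. Tnr (chromosome 1, 159523769 to 159931729) encodes tenascin-R, a matrix protein of the nervous system. It measured 5.76, 6.43 and 4.98 in vehicle and 3.62, 3.56 and 3.07 in IPA libraries, means of 5.72 ± 0.72 and 3.42 ± 0.30 (SD, n = 3), a 1.58-fold difference (log2 -0.66 ± 0.11 SE, limma adjusted p = 0.123). Ncam2, a neural cell adhesion molecule, measured 14.3, 14.9 and 14.3 against 11.5, 11.2 and 12.2. Mmp16, a membrane-bound matrix metalloproteinase, measured 6.82, 7.93 and 6.19 against 5.12, 4.47 and 4.797. In Tnr and Mmp16 vehicle replicate 3 was the vehicle value nearest the IPA group.

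Ion handling and signalling genes were also among the 12. Trpm3, a heat-gated cation channel of sensory neurons, measured 28.6, 29.5 and 24.3 against 20.5, 21.3 and 21.9 (log2 -0.36 ± 0.07 SE). Prkg1, the cGMP-dependent protein kinase of nociceptors and smooth muscle, measured 56.5, 57.4 and 48.9 against 42.4, 41.0 and 45.6. Slc39a10, a zinc importer, measured 51.4, 51.8 and 48.1 against 41.9, 41.4 and 43.1. Vehicle replicate 3 was again the lowest vehicle library in each of these 3. Mut, the mitochondrial methylmalonyl-CoA mutase, had a log2 difference of -0.22. Luzp2 and Fam167a, whose roles are less well known, had -0.32 and -0.31.

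Capn11, a calpain protease known mainly from testis, had the largest difference and the widest spread. It measured 3.04, 2.10 and 0.65 in vehicle and 0.16, 0.20 and 0.21 in IPA libraries, a 3.19-fold difference on the scale with the added 0.5 (log2 -1.67 ± 0.32 SE). The vehicle values differed more from each other than vehicle replicate 3 did from the IPA libraries. Neb, the giant thin-filament protein of skeletal muscle, measured 4.53, 4.21 and 3.94 against 2.35, 2.96 and 2.90 and is taken up with the muscle genes.

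**Figure D3:**
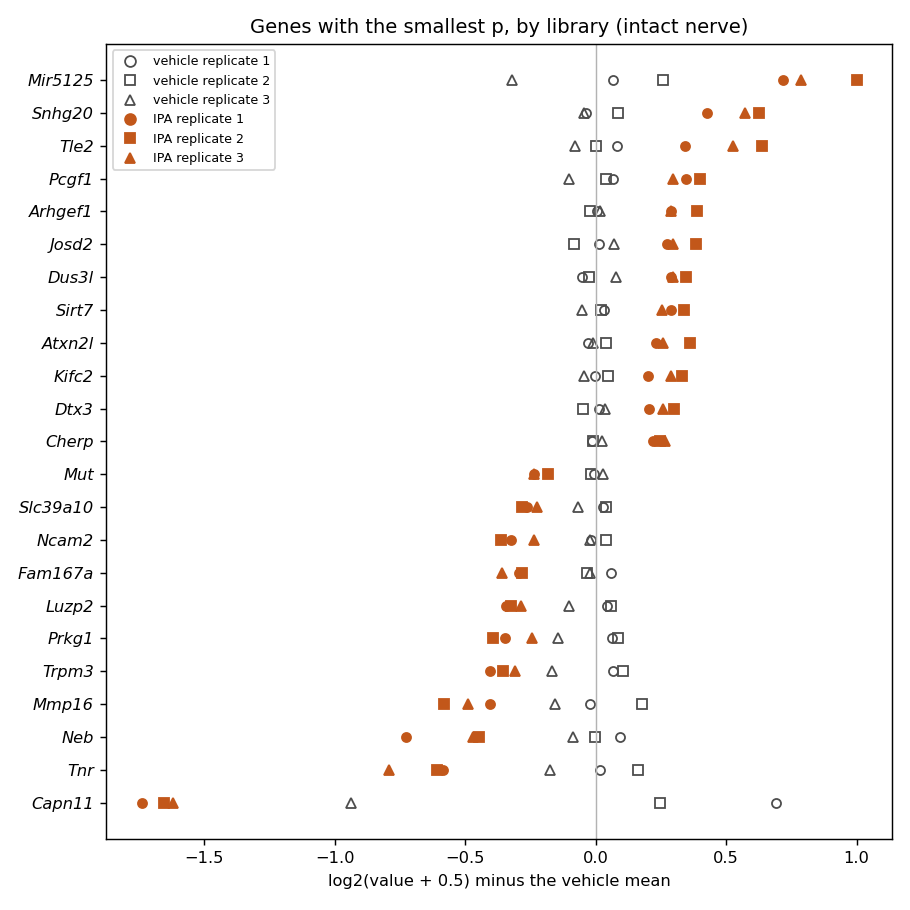
Of the 24 genes with the smallest p, 23 are drawn (12 higher and 11 lower with IPA) in the 6 intact-nerve libraries, as log2(value + 0.5) minus the vehicle mean (horizontal axis). Open grey symbols are vehicle and filled orange symbols IPA, with a shape for each replicate; the groups do not overlap for any of them, which the choice of genes required.

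The 2 sets differed in composition, which the rule did not use. The 12 higher genes had a median GC content of 57.6% and a median span of 6.11 kb, and the 12 lower ones 45.1% and 254 kb. Over all genes without overlap the medians were 55.7% and 13.1 kb for those higher and 44.8% and 50.6 kb for those lower, beside 49.8% and 24.5 kb over all tested genes. With the GC and length trend removed, all 24 kept their direction with an unadjusted p under 0.05, beside 2011 of 14777 genes at that p. The 24 had been chosen for a small p and no overlap in these same 6 libraries, which favours that outcome. The log2 difference of Arhgef1 went from 0.32 to 0.19, that of Luzp2 from -0.32 to -0.22, and that of Capn11 from -1.67 to -1.73. None of the 24 was then called. DESeq2 called 10 of the higher and 8 of the lower ones, beside 9.68% of all genes it kept. Snhg20, Mir5125, Tnr, Neb, Capn11 and Mmp16 received no adjusted p from DESeq2 and could not be called by it. Limma without vehicle replicate 3 called all 24, beside 24.7% of all tested genes. These counts rest on the libraries that chose the 24 and are not independent support.

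Isl1 and Pou4f1, which help define sensory neurons, differed little between the groups. Isl1 measured 80.6, 80.1 and 78.7 in vehicle and 82.1, 82.4 and 84.4 in IPA libraries, and Pou4f1 (Brn3a) 220.2, 212.7 and 223.0 against 220.2, 228.2 and 225.9. Their 95% intervals, -0.02 to 0.14 and -0.04 to 0.12 on the log2 scale, stayed far inside 1.5-fold, though the groups did not overlap for Isl1. All 6 tested identity factors were higher with IPA, with a median of 0.20, and 0.10 with the trend removed. Of these, 4 were without overlap, beside 13.0% of all genes. Limma called none and DESeq2 called 2, beside 9.68% of all genes it kept. The 13 pan-neuronal genes were split 6 higher to 7 lower. The 7 transcription factors listed for large-diameter neurons were split 5 higher to 2 lower, with a median of 0.03, and -0.02 with the trend removed. Isl2, Runx1 and Tlx3, each among the members of its list with the smallest p, were higher with IPA. Tlx3 is 1 of the 6 identity factors counted above. Isl2 measured 159.5, 155.2 and 173.0 against 195.6, 191.5 and 190.1 (log2 0.24 ± 0.04 SE), and Tlx3 88.2, 84.3 and 103.7 against 111.7, 113.8 and 108.4 (0.28 ± 0.07 SE). Runx1, which sets the fate of non-peptidergic nociceptors, measured 55.8, 53.3 and 61.0 against 67.7, 68.5 and 65.2 (0.24 ± 0.05 SE). None of these 3 overlapped between groups, and all 3 were called by DESeq2 but not by limma (adjusted p = 0.123 for each). With the trend removed, the differences of Isl2 and Tlx3 came to 0.09 and 0.11, and that of Runx1, a gene of 46.4% GC, to 0.31.

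Channels and receptors of nociceptors lay mostly the other way. Of the 10 nociceptor channels listed, 9 were lower with IPA and 1 higher, with a median of -0.12, and -0.14 with the trend removed. Limma called none of these 10 and DESeq2 called 3, beside 9.68% of all genes it kept. Of the 10, 4 were without overlap and lower, beside 12.8% of all genes, and 0 without overlap and higher, beside 13.0%. Trpa1, the channel for mustard oil and other irritants, measured 57.8, 54.9 and 47.8 against 46.7, 46.3 and 44.9. Trpm8, the cold and menthol channel, measured 37.9, 36.9 and 33.0 against 31.6, 30.3 and 32.8. Htr3a, the serotonin-gated channel, measured 156.0, 152.4 and 168.9 against 141.9, 143.9 and 148.7. These 3 channels did not overlap between groups, though for Trpm8 vehicle replicate 3 and IPA replicate 3 were nearly equal. Of the 16 nociceptor receptors listed, 5 were higher and 11 lower, with a median of -0.06 before and after trend removal. In each direction 1 was without overlap, beside 13.0% and 12.8% of all genes. Limma called none of the 16 and DESeq2 called 2, beside 9.68% of all genes it kept. Oprm1, the mu opioid receptor, measured 11.4, 10.5 and 6.92 against 6.85, 5.65 and 6.99, so its difference of -0.51 on the log2 scale came from vehicle replicates 1 and 2. Over all 42 nociceptor genes 16 were higher and 26 lower (median -0.04); limma called none and DESeq2 called 9, beside 9.68% of all genes it kept.

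Of 33 genes of large-diameter neurons 12 were higher and 21 lower (median -0.08, and -0.05 with the trend removed), with 5 of the 13 channels among them higher and 8 lower. Limma called none of the 33 and DESeq2 called 4, beside 9.68% of all genes it kept. Kcna2, a potassium channel of myelinated axons, measured 101.2, 112.1 and 68.9 against 59.4, 56.9 and 69.1 (log2 -0.58 ± 0.15 SE), with vehicle replicate 3 inside the IPA range. Scn1a, a sodium channel of myelinated afferents, measured 139.5, 150.8 and 121.5 against 112.4, 106.1 and 118.9. Ntrk2, the receptor for BDNF, measured 184.6, 190.3 and 179.1 against 158.2, 160.4 and 169.8. In Scn1a and Ntrk2 the groups did not overlap, and DESeq2 called both.

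Genes induced by nerve injury had a median difference near 0. Atf3, the transcription factor induced by axotomy, measured 10.7, 12.4 and 10.5 in vehicle and 11.0, 10.8 and 11.2 in IPA libraries, with a 95% interval of the log2 difference from -0.19 to 0.14. Gal, Sox11 and Gap43, a neuropeptide, a transcription factor and a growth cone protein of regenerating neurons, had log2 differences of -0.03, -0.05 and 0.11, none called. Sprr1a, a small injury-induced protein, measured 1.02, 2.62 and 1.84 against 2.32, 3.16 and 2.08, with overlapping groups. Of 36 tested injury-response genes 23 were higher and 13 lower, with a median of 0.03. Limma called none and DESeq2 called 3, beside 9.68% of all genes it kept. Cebpd, a transcription factor of inflammation that is also injury-induced, measured 7.86, 8.50 and 9.12 against 12.01, 11.2 and 9.52 (log2 0.34 ± 0.09 SE), without overlap.

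A pair of genes outside those classes combined a larger difference with no overlap between groups. Hcrtr1, the orexin 1 receptor, measured 3.95, 3.77 and 4.37 in vehicle and 5.67, 5.57 and 5.31 in IPA libraries (log2 0.41 ± 0.08 SE, limma adjusted p = 0.123), and 0.27 with the trend removed. It had the smallest p of 21 tested peptide receptors, of which 9 were higher and 12 lower. Adam8, a membrane protease of leukocytes and glia, measured 5.45, 6.16 and 4.14 against 8.16, 9.33 and 8.48 (0.69 ± 0.12 SE), and 0.60 with the trend removed. The other 9 ADAM genes ranged from -0.19 (Adam10) to 0.21 (Adam15). Of all 10, 4 were without overlap and higher, beside 13.0% of all genes, and 4 without overlap and lower, beside 12.8%. Limma called none of the 10 and DESeq2 called 4, beside 9.68% of all genes it kept. Hcrtr1 and Adam8 received no adjusted p from DESeq2 and could not be called by it.

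Among the immune lists, those of the interferon response and antigen presentation had the highest medians. Of 37 tested type I interferon response genes 33 were higher with IPA and 4 lower, with a median log2 difference of 0.23 (0.22 with the trend removed) beside 0.01 over all genes. Of 20 genes of MHC class I and II presentation 19 were higher, with a median of 0.29 (0.20 with the trend removed). No member of either list was called by limma or by DESeq2, and 7 and 3 had an unadjusted p under 0.05 in limma, all higher. DESeq2 could not call members that its filter left out, such as Rtp4 and H2-Q7. Rtp4, an interferon-induced gene, measured 2.58, 3.22 and 2.71 against 4.30, 4.14 and 3.09. Tap2, a subunit of the peptide transporter of class I presentation, measured 11.2, 10.0 and 11.2 against 13.4, 18.1 and 10.9. H2-Q7, a class I molecule, measured 1.73, 1.59 and 1.85 against 2.35, 6.11 and 1.88. IPA replicate 2 was far above every other library for H2-Q7, and IPA replicate 3 lay inside or next to the vehicle range for these genes. Without IPA replicate 2 the median of the MHC list was 0.03 and that of the interferon list 0.10.

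Other leukocyte genes gave a mixed picture. Of 31 macrophage genes 22 were higher and 9 lower (median 0.09, and 0.01 without IPA replicate 2), none called. Aif1 (Iba1) measured 0.54, 0.57 and 0.65 against 1.81, 1.34 and 0.70, and Mrc1, the mannose receptor of resident macrophages, 6.74, 7.98 and 6.80 against 6.43, 6.51 and 5.30. Both were free of overlap, in opposite directions. Of 16 tested neutrophil genes 3 were higher and 13 lower (median -0.18); without vehicle replicate 3 the median was 0.13. Ly6g, which defines neutrophils, was below the filter at 0.11 to 0.21 in every library. Of 11 lymphocyte and mast cell genes 5 were higher and 6 lower, and of 16 chemotaxis genes 9 were higher and 7 lower, with no call in either list. In tissue RNA, fewer cells of a type and less RNA per cell cannot be told apart.

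Glial, vessel and connective tissue lists had medians near 0. Satellite glia genes were split 9 higher to 13 lower (median -0.01), with Kcnj10, the potassium channel of satellite glia, at 62.3, 65.4 and 64.3 against 58.5, 59.3 and 57.9. Myelinating Schwann cell genes were split 14 to 7 (median 0.01), endothelial and pericyte genes 17 to 6 (0.08), and fibroblast genes 21 to 7 (0.09). Egr2, the master factor of myelination, measured 10.8, 10.6 and 15.6 against 14.6, 18.6 and 17.2 and was called by DESeq2 but not by limma. Ogn, a small leucine-rich proteoglycan of connective tissue, measured 124.1, 147.7 and 124.9 against 107.8, 111.0 and 112.9, without overlap, and was likewise called by DESeq2 and not by limma. Col1a1, a chain of type I collagen, measured 106.4, 110.9 and 143.0 against 174.9, 180.3 and 123.4, with overlapping groups.

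Genes of tissue next to the ganglion formed the list that stood farthest from 0. Of 24 tested skeletal muscle genes 22 were lower with IPA and 2 higher, with a median of -0.55 (-0.57 with the trend removed), and limma called none. Of the 24, 18 were lower with an unadjusted p under 0.05, beside 10.8% of all genes, and 7 were lower without overlap, beside 12.8%. DESeq2 called 1 (Tpm2, a tropomyosin), beside 9.68% of all genes it kept. Neb and Mybpc1 received no adjusted p from DESeq2 and could not be called by it. Summed muscle values were 230.0, 210.2 and 271.6 in vehicle and 151.3, 221.8 and 180.3 in IPA libraries, so IPA replicate 2 lay inside the vehicle range. Myh4, a fast myosin heavy chain, measured 18.8, 17.9 and 29.4 against 7.80, 19.8 and 11.3, and Atp2a1, the calcium pump of fast fibres, 12.5, 12.7 and 16.3 against 4.84, 11.4 and 9.04. Neb, among the 12 lower genes, belongs to this list. The median ranged from -0.32 without IPA replicate 1 to -0.79 without IPA replicate 2. The part of carried-over muscle in these values was not tested.

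The other neighbouring tissues had medians of either sign. Of 12 adipocyte genes 11 were higher and 1 lower (median 0.29), with summed values of 38.9, 28.3 and 32.3 against 45.1, 41.5 and 35.6, which overlap. Cidec, a lipid droplet protein, measured 1.52, 0.83 and 1.19 against 1.80, 2.26 and 1.91. Erythroid genes were split 2 to 9 (median -0.05), with summed values of 221.7, 150.4 and 203.9 against 161.3, 216.4 and 186.9, which overlap. Bone and cartilage genes were split 5 to 2 (0.02), and spinal cord glia genes 2 to 3 (-0.13). Olig1 and Mog, which define oligodendrocytes, were between 0.03 and 0.15 in every library. Xist was at 0.04 or less and the Y-linked gene Ddx3y at 41.3 to 50.3 in every library, the pattern of male tissue. Ddx3y and Uty were lower in all 3 IPA than in all 3 vehicle libraries, at log2 -0.19 and -0.24, and at -0.10 and -0.14 with the trend removed.

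Lists of protein synthesis and energy metabolism had medians slightly above 0. Of 73 cytosolic ribosomal protein genes 64 were higher with IPA and 9 lower, with a median of 0.12; 38 were without overlap and higher, beside 13.0% of all genes, 1 was without overlap and lower, beside 12.8%, and DESeq2 called 17, beside 9.68% of all genes it kept. Rpl36, of the large subunit, measured 44.9, 39.0 and 51.0 against 55.5, 57.0 and 57.1. With the trend removed the median of the list was 0.05, and 57 of 73 were higher. Nuclear-encoded respiratory chain genes were split 39 to 11 (median 0.07, and 0.03 with the trend removed). Neither list held a limma call.

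Lists of lipid, antioxidant, early response and clock genes had medians between -0.02 and 0.10. Cholesterol and fatty acid synthesis genes were split 15 to 16 (median -0.00). Of these 31, 10 were without overlap and higher, beside 13.0% of all genes, and 2 without overlap and lower, beside 12.8%. Limma called none of the 31 and DESeq2 called 4, beside 9.68% of all genes it kept. Mvk, Tm7sf2 and Mvd, of the cholesterol pathway, were each without overlap, higher with IPA and called by DESeq2. NRF2 antioxidant genes were split 15 to 13 (0.03), with Gpx1, a glutathione peroxidase, at 96.8, 87.1 and 105.3 against 106.8, 116.2 and 116.2. Immediate early genes, 18 higher to 4 lower, had a median of 0.10 that came to 0.00 with the trend removed. Clock genes were split 9 to 10 (-0.02). Clock itself measured 52.4, 55.05 and 41.6 against 40.4, 40.6 and 41.0, with vehicle replicate 3 next to the IPA libraries. Proliferation genes were split 7 to 13 (-0.07) and glucocorticoid targets 11 to 7 (0.06). Nfkbia, a feedback inhibitor of NF-kB, measured 16.4, 18.3 and 18.2 against 23.9, 25.1 and 19.1.

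**Figure D4:**
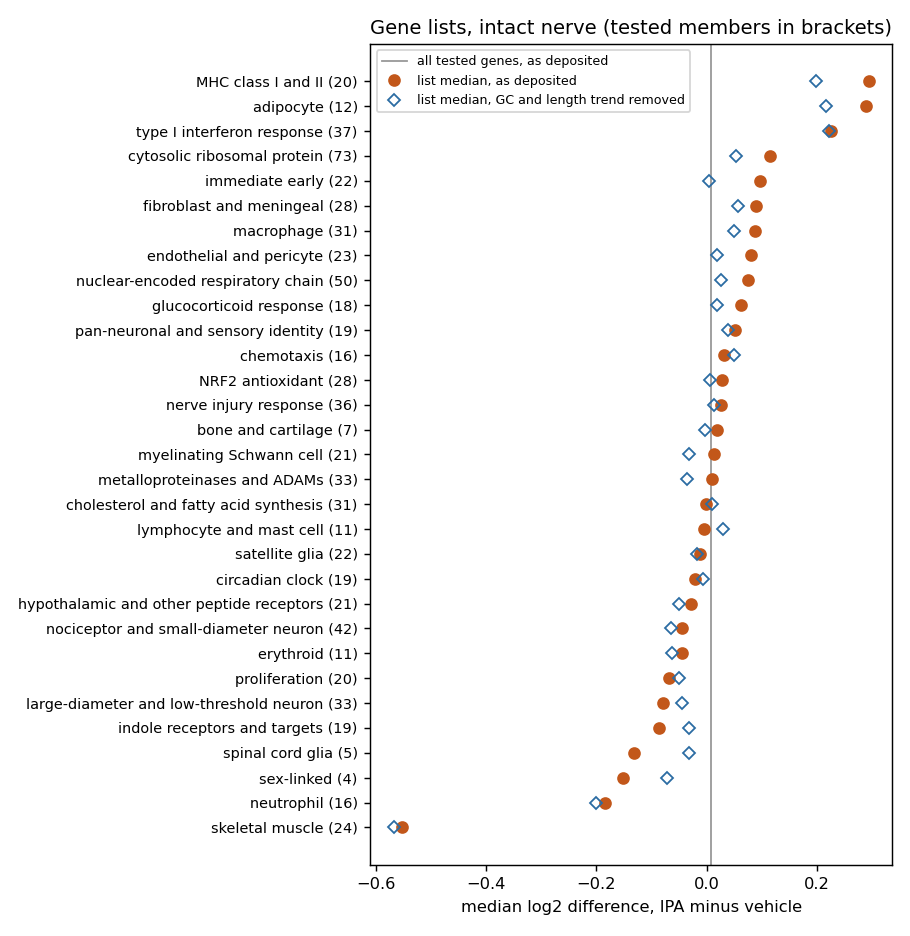
Median log2 difference, IPA minus vehicle, intact nerve (horizontal axis) of 31 gene lists, with the number of tested members in brackets. Filled circles are the deposited values and open diamonds the values with the GC and length trend removed; the vertical line is the median of all tested genes (0.01). Skeletal muscle lies at -0.55, and the MHC, adipocyte and interferon lists lie between 0.23 and 0.29.

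The 6 crushed-nerve libraries give the same treatment contrast in other mice. There limma called 0% of the genes, with 767 at an unadjusted p under 0.05. There were 894 genes without overlap and higher with IPA (5.93%) and 835 without overlap and lower (5.54%). All 24 genes named above had the same direction after crush as in intact nerve, 1 of the higher and 2 of the lower ones without overlap. The share was 70.7% over all tested genes, and 83.7% and 82.9% over all genes that, like these 24, were without overlap in intact nerve and higher or lower. That count rested on 1 library. Crushed vehicle replicate 1 had 40938034 reads and a GC slope of -0.18, against 0.05 and 0.03 in the other 2 crushed vehicle libraries. Without it, 5 of the 12 higher and 8 of the 12 lower genes kept their direction, beside 61.1% and 45.7% of all higher and lower genes without overlap and 52.2% of all tested genes. Leaving out any other crushed-nerve library kept all 24.

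**Figure D5:**
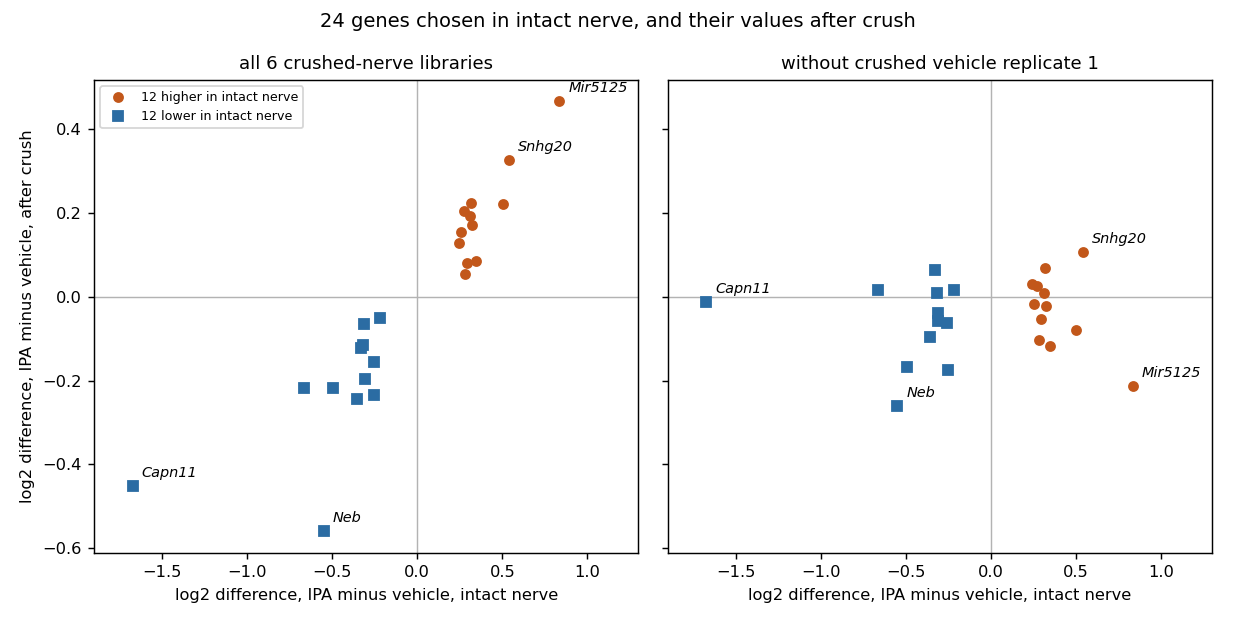
Log2 difference, IPA minus vehicle, of the 24 genes in intact nerve (horizontal axes) and after crush (vertical axes), with all 6 crushed-nerve libraries (left) and without crushed vehicle replicate 1 (right). On the left all 24 lie in the quadrants of matching sign; on the right 13 do.

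Some named genes, chosen here after their values were seen, kept their difference with and without that library. Hcrtr1 measured 4.18, 3.59 and 4.27 in crushed vehicle and 6.38, 5.41 and 5.47 in crushed IPA libraries, a log2 difference of 0.47, and 0.50 without crushed vehicle replicate 1. Its groups were free of overlap in intact and in crushed nerve. Isl2 measured 101.6, 106.8 and 109.3 against 151.2, 139.7 and 110.7 after crush, and Runx1 42.4, 45.5 and 48.0 against 54.5, 50.9 and 48.3, both without overlap (0.30 and 0.13 without that library). Mmp16, from the 12 lower genes, was without overlap after crush too, at -0.17 without that library. Among the other named genes, Kyat1, Mvk, Tm7sf2, Rps10, Ier3, Kcnj10 and Ntrk2 were likewise without overlap in the same direction in intact and in crushed nerve. The share of all tested genes that did so was not counted. None of these was called after crush by limma.

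The difference between the treatment effects with and without injury was tested as an interaction over all 12 libraries. No gene was called (limma, 0% of 15076), and 304 had an unadjusted p under 0.05. Adam8 measured 75.6, 96.0 and 92.2 against 80.3, 78.3 and 87.8 after crush, so its intact difference of 0.69 stood beside -0.09 (interaction -0.78, limma adjusted p = 1.00). Aif1 likewise had 0.67 in intact nerve and -0.11 after crush. Neither difference of effects passed the test.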

How the data were processed

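RNA of L4 to L6 ganglia was read as pairs of 75 bases from directional poly(A) libraries, with RNA integrity above 8.0, per the labels' protocols. Build mm10, FastQC 0.10.1, STAR 2.7.0, R 3.5.0, limma 3.38.3 and edgeR 3.24.3 are listed in the submitters' processing notes; what each was used for, and which counter and annotation were used, is not given in the sources used here. As a data file, the authors deposited a single table whose name says FPKM, but its values are CPM-like, scaled reads with no division by gene length. Dividing by the smallest step of a library gave whole numbers for 100% of values (tolerance 1e-06), so reads were recovered, 41694916 to 56798355 per intact library; 1 read was worth 0.0142 to 0.0193.

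Libraries were grouped by label. Genes with at least 0.5 in 3 or more of the 6 libraries were fitted as log2(value + 0.5) with limma-trend (limma 3.58.1, R 4.3.3; 4 residual degrees of freedom), with p-values adjusted over all tested genes. The crushed-nerve libraries were fitted separately, and the interaction over 12 libraries. On recovered reads, edgeR 4.0.16 (quasi-likelihood) called 0 genes and DESeq2 1.42.0 called 865. Replicates are separate pools of mice. Replicates differed by more than sampling noise in every pair (5.15 to 19.4, chi-square over its degrees of freedom).

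Named were the 12 genes per direction with the smallest p among those averaging 1 or more in either group without overlap, 3 or fewer members of each list, again by p, and a set of receptor, injury, identity and clock genes; list members shown beyond these (such as Trpa1, Trpm8, Oprm1 and Atp2a1) were chosen after their values were seen. The members and the 31 lists were chosen with earlier results of these data known. Coordinates and GC content come from GENCODE M21 (GRCm38); promoters are RefSeq GRCm38.p6. Alternatives were the pseudocount, the filter, 3 scalings, all 12 libraries in 1 fit, the replicate block, array weights, variance priors, the tool, a threshold of 0.1, each library left out, and correction of every library for GC content and transcript length by natural splines (5 df each). Removal of the gene span trend as well, trend removal combined with array weights or without vehicle replicate 3, and leaving out the crushed-nerve libraries were chosen after seeing the data. A gene among the 12 lower ones and a list member are not reported here. The code was tested on simulated data.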

Additional observations from a re-analysis of the deposited data

Results flagged for a closer look

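Mfap4, a microfibril-associated protein of connective tissue, was the only named gene whose groups were free of overlap in opposite directions with and without injury. In intact nerve it measured 1.18, 1.35 and 1.65 in vehicle and 2.19, 2.49 and 1.99 in IPA libraries, a log2 difference of 0.53. After crush it measured 1.45, 2.16 and 1.45 in vehicle and 0.87, 1.02 and 0.78 in IPA libraries, a log2 difference of -0.64, and -0.71 without crushed vehicle replicate 1. The interaction had an adjusted p of 0.647 in limma over all 15076 genes, so the difference of effects was not called.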

How the results depend on the processing

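Genes called (0) became 5000 with array weights, 865 with DESeq2, 653 with the GC and length trend removed and vehicle replicate 3 left out, and 56 with array weights after that removal; leaving out single libraries gave 0 to 3717, the latter without vehicle replicate 3. Every other setting gave 0, the threshold of 0.1 included. Genes at an unadjusted p under 0.05 (3470) became 1875 with all 12 libraries in 1 fit, 2011 with the GC and length trend removed, 1907 with gene span removed too, 6750 with array weights and 1743 to 5719 with single libraries left out. The replicate block gave 0 calls and 2814 genes at p under 0.05, and 1931 with the trend removed too; the labels do not say that a number pairs pools, and same-numbered deviations correlated at -0.00, -0.18 and -0.15. After crush, leaving out single libraries gave 0 to 2 calls, the latter without crushed vehicle replicate 1; the interaction gave 0 throughout.

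Over 129 named genes, 2598 of 2830 values under alternatives kept their direction and side of the threshold, 229 newly passed it and 3 changed sign, a direction being counted only where a value exceeded its SE. These were the log2 change of Cpa3 with array weights (0.0232) and the log2 change of Alpl with the trend removed, with and without the replicate block (-0.00569 in both). Of 620 list medians, 41 moved by more than the spread between libraries. The cause was not tested. With 3 libraries a group, an exact permutation test cannot go below 0.1. Depth was not equal between groups, and genes near 0.5 rest on few reads.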
